A study of Mus musculus with 12 samples.

Results

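tRF-3b fragments are the longer of the 2 classes of short RNAs cut from the 3′ end of mature tRNAs, and those of nuclear tRNAs other than leucine are described here. They were taken as every distinct read sequence that the deposited table gives the subtype tRF-3b under at least 1 nuclear tRNA that does not carry leucine. This gave 867 of 87699 distinct sequences, with 4913 of 1705883 tRNA reads (0.288%). Another 110 tRF-3b sequences with 582 reads were listed under nuclear leucine tRNAs only, and the table held 1156 tRF-3b sequences over all tRNAs. Sequences were grouped by isodecoder, the tRNA with its anticodon, and a group of several names, such as Ala-CGC/Ala-TGC, holds the sequences listed under each of those isodecoders.

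The libraries came from livers of male B6D2F1/Crl mice that lacked NSun2 (NSun2-/-, called NS-KO) or were wild type (WT). The NS-KO line carried a small germline deletion in NSun2 made with CRISPR/Cas9. The labels give ages of 8 to 12 weeks in the sample table and of 9 to 12 weeks in the treatment protocol. Mice of both genotypes received corn oil alone (D0), or CCl4 at 40% in corn oil and 2 mL per kg by intraperitoneal injection, and livers were taken 3 days later (D3) or, with injections repeated, at 27 days (D27). CCl4 is a solvent that hepatocytes convert to a toxic radical. Each of the 6 groups had 2 libraries, which the study calls independent biological replicates. RNAs of 14 to 40 nt were sequenced after treatments that remove 3′ amino acids, cyclic phosphates and the base methylations m1A and m3C. The table holds tRNA reads only, so no marker of a cell type could be checked. Libraries held 46937 to 221446 tRNA reads in NS-KO and 81515 to 275568 in WT, of which 249 to 625 were tRF-3b reads outside leucine. In reads per 1000000 tRNA reads (CPM), 1 read was worth 21.3 CPM in the shallowest library and 3.63 CPM in the deepest.

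A mature tRNA ends in CCA, which is added after transcription and is not encoded in mammalian tRNA genes. Shortly before this end lies the T arm, whose loop carries pseudouridine and, at position 58, an adenosine that in many tRNAs is methylated to 1-methyladenosine (m1A). m1A blocks base pairing, so that a reverse transcriptase stops there or inserts another base. tRF-3a is cut on the 3′ side of the T loop and tRF-3b further upstream within the loop, so that only tRF-3b spans position 58. NSUN2, the enzyme that is missing in NS-KO, makes 5-methylcytosine (m5C) at the junction of the variable loop and the T stem, which lies upstream of both classes.

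The sequences on which the results turn are the perfect-match 22 nt fragments of glycine tRNAs and their A58T forms. The most read form of other leading groups is also given. A58T means A in the listed tRNA taken as the reference and T in the read at position 58. Positions are counted back from position 76 at the 3′ end. The sequences are written 5′ to 3′ as DNA, as the table gives them, with the base at position 58 in capitals.
Gly-TCC, 22 nt, perfect match, 41 reads: tcgAttcccggccaacgcacca
Gly-TCC, 22 nt, A58T, 42 reads: tcgTttcccggccaacgcacca
Gly-TCC, 21 nt, perfect match, 8 reads: cgAttcccggccaacgcacca
Gly-CCC/Gly-GCC, 22 nt, perfect match, 67 reads: tcgAttcccggccaatgcacca
Gly-CCC/Gly-GCC, 22 nt, A58T, 166 reads: tcgTttcccggccaatgcacca
Glu-TTC, 22 nt, perfect match, 454 reads: tcgActcccggtgtgggaacca
Ala-CGC/Ala-TGC, 22 nt, perfect match, 311 reads: tcgAtccccggcatctccacca
Ala-AGC, 22 nt, perfect match, 124 reads: tcaAtccccggcacctccacca
Tyr-GTA, 19 nt, A58T, 109 reads: Tttccggctcgaaggacca
Tyr-GTA, 22 nt, perfect match, 83 reads: tcgAttccggctcgaaggacca
Arg-ACG, 22 nt, perfect match, 103 reads: tcgActcctggctggctcgcca
Val-TAC, 22 nt, perfect match, 98 reads: tcgAgccccagtggaaccacca
Gln-CTG, 19 nt, perfect match, 75 reads: Aatctcggtggaacctcca
Every one of these reads runs to the CCA end.

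Most of these fragments have several identical source genes. In GRCm38, the Gly-TCC fragment fits 5 listed gene copies, among them tRNA-Gly-TCC-1-1 at chr1:171037997-171038068 (RefSeq n-TGtcc2) and tRNA-Gly-TCC-1-7 at chr11:69041278-69041349 (n-TGtcc6). The Glu-TTC fragment fits 4 copies, with tRNA-Glu-TTC-1-1 at chr7:58399315-58399386 (n-TEttc7). The Val-TAC fragment fits 3 copies, 1 of them at chrX:160766110-160766182 (n-TVtac3), and the Gly-CCC/Gly-GCC fragment is shared by tRNAs with different anticodons. The reads cannot tell these copies apart.

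The 4913 reads were spread over 46 isodecoder groups, and the 8 groups with most reads took 71.4% of them. Alanine tRNAs gave 1208 reads (24.6%), glutamate 699, glycine alone 638, tyrosine 610 and glutamine 460, whereas lysine gave 8 and selenocysteine 1. Ala-CGC/Ala-TGC with 699 reads and Glu-TTC with 698 led the single groups, followed by Tyr-GTA (610), Ala-AGC (429), Gly-CCC/Gly-GCC (338), Gln-CTG (331), Arg-ACG (228) and Val-TAC (174). Of the 46 groups, 28 held at least 10 reads and 18 held fewer. Single sequences were sparse, with 513 of 867 seen as 1 read in all, 528 found in 1 library only and 20 found in all 12 libraries. Perfect matches numbered 164 sequences with 2996 reads, and 703 sequences with 1917 reads had the 1 mismatch that the alignment allowed.

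In CPM, which scales by total tRNA reads alone, the levels of the groups with most reads differed by day and genotype. With this scaling 51.2% of all 281 sums by subtype and isodecoder were called higher in NS-KO over days (limma, adjusted p under 0.05). The Ala-CGC/Ala-TGC group was at 650 and 1044 CPM in NS-KO at D0, then 321 and 298 at D3, then 1001 and 800 at D27, against 154 and 223 CPM in WT at D0, then 896 and 434 at D3, then 619 and 258 at D27. Glu-TTC was at 678 and 724 CPM in NS-KO at D0, then 411 and 369 at D3, then 1213 and 1339 at D27, against 75.1 and 142 CPM in WT at D0, then 1239 and 440 at D3, then 453 and 160 at D27. In both groups the NS-KO libraries lay above WT at D0 and D27 and below WT at D3, without overlap within a day. Depth differed as well. At D0 and D27 the NS-KO libraries held 46937 to 70818 tRNA reads and the WT libraries 156602 to 275568. At D3 the NS-KO libraries held 221446 and 127326 reads and the WT libraries 81515 and 193377. Whether these levels follow depth was not tested. Tyr-GTA, whose tRNA is spliced from an intron-containing precursor, was at 565 and 383 CPM in NS-KO at D0, then 334 and 346 at D3, then 1192 and 1217 at D27, against 154 and 186 CPM in WT at D0, then 687 and 321 at D3, then 466 and 167 at D27. Its genotypes overlapped at D3 only. Scaled instead by the trimmed mean of M values (TMM), the log2 fold change at D0 was 1.39 for Glu-TTC (limma adjusted p = 0.028). It was 0.84 for Ala-CGC/Ala-TGC (limma adjusted p = 0.12) and 0.17 for Tyr-GTA (0.75). At D27 these values were 0.78, −0.27 and 0.65, none of them called.

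**Figure D1:**
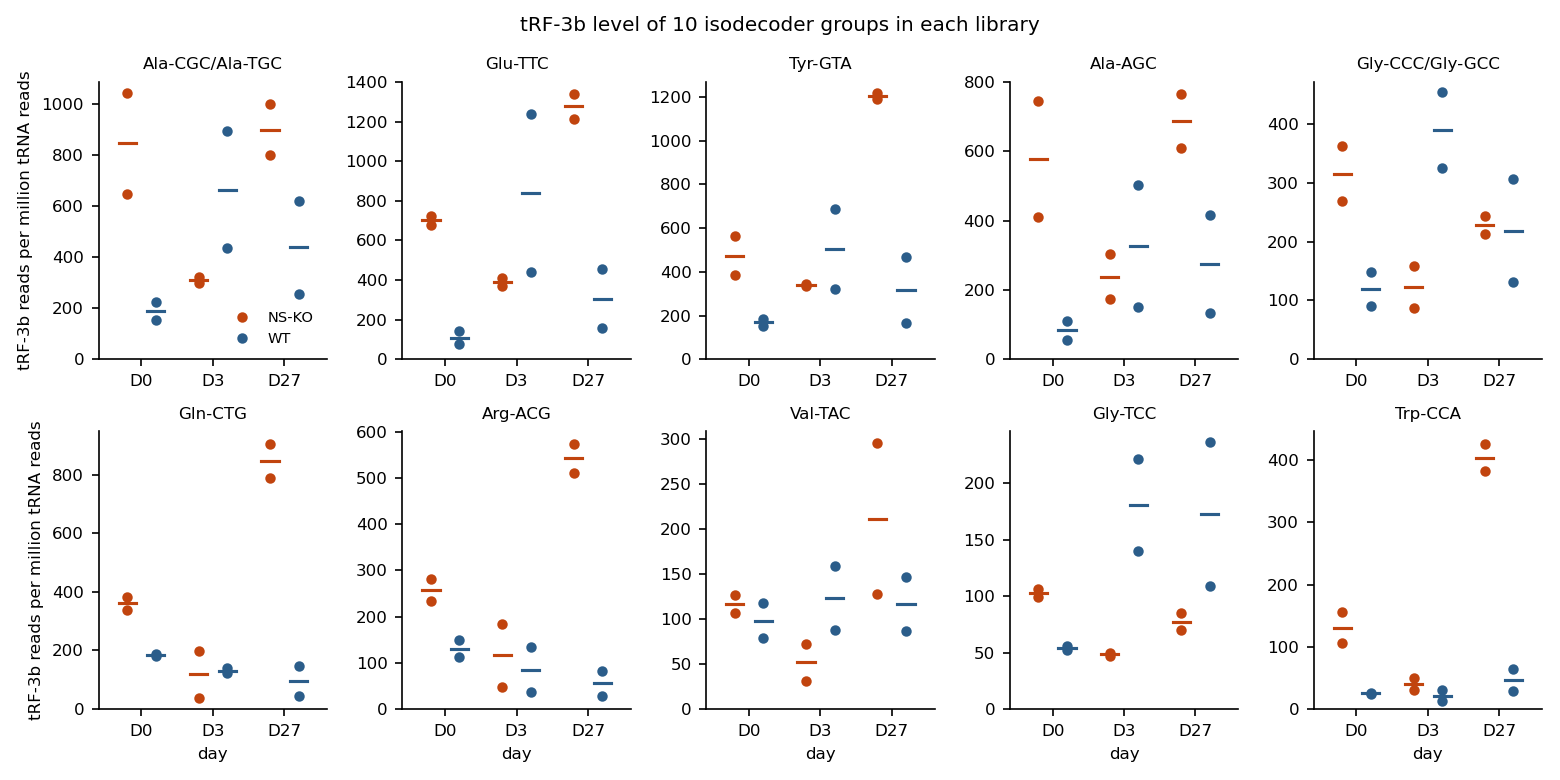
Each panel plots the tRF-3b level of 1 isodecoder group in CPM (y axis, linear, from 0) by day (x axis), with 1 point per library, NS-KO left of WT and a bar at the mean of each pair. Glu-TTC lay at 678 and 724 CPM in NS-KO at D0 against 75.1 and 142 CPM in WT, and its highest WT point is 1239 CPM at D3.

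The share of all tRNA reads that were tRF-3b outside leucine was 0.534% ± 0.273 in NS-KO, against 0.270% ± 0.157 in WT (SD, n = 6 each). By library it was 0.483% and 0.565% in NS-KO at D0, then 0.282% and 0.196% at D3, then 0.786% and 0.890% at D27, against 0.1295% and 0.191% in WT at D0, then 0.543% and 0.264% at D3, then 0.351% and 0.143% at D27. NS-KO was higher at D0 and D27, and the libraries of the 2 genotypes overlapped at D3. Libraries of 81515 tRNA reads or fewer had shares of 0.483% or more, and those of 127326 reads or more had 0.351% or less. Whether the share follows depth was not tested. Averaged within days the difference was 0.263 percentage points, with p = 0.0648 in an exact permutation test that exchanged genotypes within days, two-sided (adjusted p = 0.222 over 9 measures). Without WT D3 replicate 1 it was 0.310 points (exact permutation p = 0.0370). When the reads of tRF-5c, an abundant 5′ class, were left out of the total, the difference was 0.0102 points (exact permutation p = 0.972). The number of tRF-3b sequences that reached 20 CPM was 77.2 ± 57.5 in NS-KO, against 26.7 ± 15.3 in WT (SD, n = 6 each; exact permutation p = 0.0741, adjusted 0.222), and 1 read already passes this level in the shallowest library. Thinned to 46937 reads in every library, the difference was 53.5 sequences, with an exact permutation p of 0.0648.

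A measure that needs no scaling between libraries is the share of tRF-3b among the tRF-3a and tRF-3b reads of the same tRNAs. This share was higher in NS-KO than in WT on every day. It was 18.3% and 18.8% in NS-KO at D0, then 19.7% and 13.9% at D3, then 25.1% and 26.3% at D27, against 8.55% and 7.88% in WT at D0, then 10.53% and 12.5% at D3, then 16.2% and 14.1% at D27. Within each day no WT library reached an NS-KO library. The means were 20.3% ± 4.62 in NS-KO, against 11.6% ± 3.25 in WT (SD, n = 6 each), a difference of 8.70 percentage points. The exact two-sided permutation test gave p = 0.00926, the smallest that its arrangements can give, and an adjusted p of 0.0833 over the 9 measures, which misses the threshold of 0.05. With the other measures as they were, a larger difference could not have lowered this adjusted p, so the miss says nothing about its size. Leaving out each library in turn kept the difference between 7.73 and 9.67 points.

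The mean share was higher in NS-KO in most isodecoders, though not on every day in each. Of the fitted groups listed under glycine alone, Gly-TCC was higher on 1 of 3 days (pooled 69.8% in NS-KO and 66.2% in WT, exact permutation p = 0.287). Gly-CCC/Gly-GCC and Gly-CCC were higher on 2 days (exact permutation p = 0.370 and 0.333). Of 17 fitted groups with a tRF-3a or tRF-3b read in every library and at least 50 tRF-3a reads in all, 16 had a higher mean share in NS-KO and 1, Val-TAC, a lower one (61.7% in NS-KO and 66.0% in WT). Met-CAT, with 39 tRF-3a reads, was left out of this test, and its share was 73.6% ± 18.5 in NS-KO, against 65.4% ± 24.7 in WT (SD, n = 6 each). In 4 groups the exact permutation test gave p = 0.00926 and an adjusted p of 0.0394 over the 17 groups (Benjamini-Hochberg), and in each of them NS-KO was above WT on all 3 days. Glu-TTC stood at 94.2% ± 2.46 in NS-KO, against 72.2% ± 14.7 in WT (SD, n = 6 each), with NS-KO between 91.9% and 98.7% and WT between 47.6% and 89.8%. Only 1 to 5 tRF-3a reads of Glu-TTC stand behind each NS-KO value, and 5 to 33 behind each WT value. Gln-CTG/Gln-TTG stood at 13.7% ± 5.10 in NS-KO and 2.90% ± 0.668 in WT, with the lowest NS-KO library at 7.35% and the highest WT library at 3.49%. Gly-ACC/Val-AAC/Val-CAC stood at 10.03% ± 3.58 in NS-KO and 2.73% ± 0.548 in WT, and its libraries did not overlap either. Ala-CGC/Ala-TGC stood at 22.1% ± 3.74 in NS-KO and 13.1% ± 4.45 in WT and overlapped across days, since 18.4% in WT D27 replicate 1 exceeded 17.2% in NS-KO D0 replicate 1. The share itself ranged widely between tRNAs. Pooled over libraries, 302 of 3621 reads of Tyr-GTA were tRF-3b in NS-KO (8.34%) and 308 of 4862 in WT (6.33%), against 135 of 204 of Arg-ACG in NS-KO (66.2%) and 93 of 189 in WT (49.2%).

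**Figure D2:**
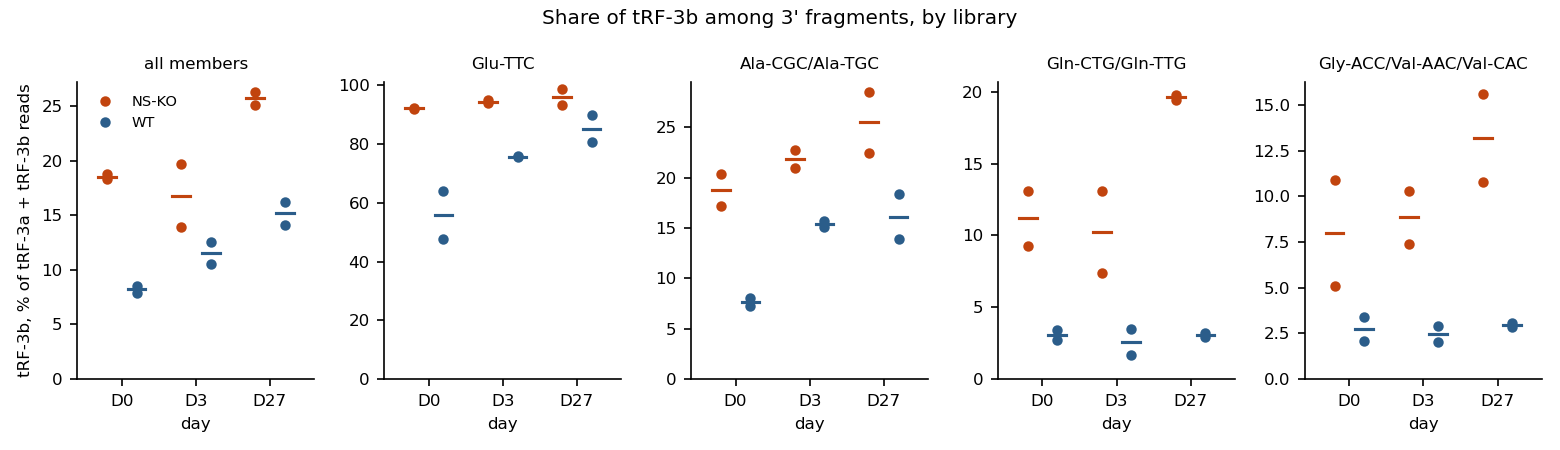
The panels plot tRF-3b reads as a percentage of tRF-3a and tRF-3b reads (y axis, from 0) by day (x axis) for all members and for single isodecoder groups, with 1 point per library, NS-KO left of WT and a bar at the mean of each pair. For all members, NS-KO points run between 13.9% and 26.3% and WT points between 7.88% and 16.2%, with NS-KO above WT within every day.

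Leucine tRNAs, which are outside the set, had the same order. Their tRF-3b share was 14.7% ± 4.14 in NS-KO, against 9.16% ± 3.40 in WT (SD, n = 6 each; exact permutation p = 0.00926). The genotype difference of the other tRNAs exceeded that of leucine by 3.17 points, and that excess had an exact permutation p of 0.111, so a difference between the sets was not shown. The 2 terms of the share can be seen apart in limma fits of summed reads, with adjusted p-values from Benjamini-Hochberg over all 281 sums by subtype and isodecoder and with levels scaled by the trimmed mean of M values (TMM). tRF-3a reads were lower in NS-KO over the 3 days for Gln-CTG/Gln-TTG (log2 fold change −1.70, SE 0.14, limma adjusted p = 3.5e-05), Glu-TTC (−1.71, SE 0.33, adjusted p = 0.0029) and Ala-CGC/Ala-TGC (−1.10, SE 0.13, adjusted p = 2.0e-04). For the tRF-3b reads of these groups the log2 fold changes were 0.55, 0.44 and −0.12 and did not pass. The tRF-3a value of Glu-TTC rests on 137 reads in all, with 1 to 5 in each NS-KO library. Scaled by total tRNA reads alone, the tRF-3a values were −0.82 (limma adjusted p = 0.023), −1.10 (0.012) and −0.21 (0.56), and the tRF-3b values were 1.31 (limma adjusted p = 0.0029), 1.29 (0.0011) and 0.74 (0.063). The tRF-3b rise of Glu-TTC was also called with the upper quartile as the scaling (log2 fold change 0.48, limma adjusted p = 0.030) and without WT D0 replicate 2 or WT D27 replicate 1, and that of Gln-CTG/Gln-TTG without NS-KO D3 replicate 2.

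Of all 281 sums, 20.3% were called higher and 19.2% lower in NS-KO over the 3 days (limma, adjusted p under 0.05). Of the 18 tRF-3b groups outside leucine in this fit, 1 was higher and 3 were lower, which does not exceed the background in either direction. Their median log2 fold change was 0.34, against 0.0966 over all sums. The 3 lower groups were 2 of glycine and 1 of valine. Gly-TCC was at 98.8 and 107 CPM in NS-KO at D0, then 49.7 and 47.1 at D3, then 85.2 and 69.5 at D27, against 52.6 and 55.7 CPM in WT at D0, then 221 and 140 at D3, then 236 and 109 at D27. In CPM its NS-KO libraries were above WT at D0 and below WT at D3 and D27. After TMM scaling its log2 fold change over days was −1.32 (SE 0.20, limma adjusted p = 6.9e-04), with −0.30 at D0 (adjusted p = 0.60), −1.52 at D3 (0.0075) and −2.15 at D27 (0.012). Gly-CCC/Gly-GCC fell by 0.86 on the log2 scale over days (SE 0.23, limma adjusted p = 0.012), and Val-TAC fell by 0.82 (SE 0.24, adjusted p = 0.020).

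Trp-CCA, from the tRNA that reads the only tryptophan codon, was the 1 group that was higher. It was at 155 and 107 CPM in NS-KO at D0, then 49.7 and 31.4 at D3, then 426 and 383 at D27, against 26.3 and 24.8 CPM in WT at D0, then 12.3 and 31.0 at D3, then 63.9 and 29.0 at D27. NS-KO lay above WT on each day, by the least at D3, where 31.4 and 31.0 CPM were nearly equal. Its log2 fold change was 0.98 (SE 0.27, limma adjusted p = 0.016), and the call was lost without NS-KO D0 replicate 1 or WT D0 replicate 2. The remaining groups of the 8 with most reads had log2 fold changes between −0.12 for Ala-CGC/Ala-TGC and 0.66 for Arg-ACG, none of them called.

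These calls rest on the scaling. TMM factors ran between 0.989 and 1.90 in NS-KO libraries and between 0.473 and 1.57 in WT libraries. Scaled by total tRNA reads alone, the median log2 fold change of all 281 sums moved to 0.842, and 11 of the 18 tRF-3b groups were called higher and 0 lower by limma (13 had an unadjusted p under 0.05), where 51.2% of all sums were called higher and 6.41% lower. There Gly-TCC had −0.59 (adjusted p = 0.19), Gly-CCC/Gly-GCC −0.04, Val-TAC −0.04 and Trp-CCA 1.78 (limma adjusted p = 5.5e-05), and Ala-CGC/Ala-TGC turned to 0.74 (adjusted p = 0.063). Of the 4 calls over days, Trp-CCA alone held with total reads. The Val-TAC call was also lost with perfect matches only and without replicate 2 of WT D0 or of WT D3. Without NS-KO D3 replicate 2 the median log2 fold change of the 18 groups was 0.414, against 0.111 over all sums.

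At single days the tRF-3b calls were few. At D0, 11.4% of all sums were called in either direction, and of the 18 groups Glu-TTC was higher in NS-KO (log2 fold change 1.39, SE 0.32, limma adjusted p = 0.028), a call that was lost on leaving out any 1 of the 4 D0 libraries. At D3, 29.5% of all sums were called, and Gly-TCC and Gly-CCC/Gly-GCC were lower in NS-KO (−1.52 and −1.54, limma adjusted p = 0.0075 and 0.014). Both D3 calls were lost with total reads and without replicate 2 of NS-KO D3 or of WT D3. At D27, 12.1% of all sums were called and Gly-TCC was lower, a call that was lost with total reads and without WT D27 replicate 2.

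The injury contrasts compare each CCl4 day with the corn oil mice of the same genotype, and the contrasts of D3 and D27 share those D0 libraries. In WT at D3, 0.356% of all sums were called, which is the single sum of Glu-TTC tRF-3b (log2 fold change 1.87, limma adjusted p = 0.046, lost in 10 of 19 alternatives). In NS-KO at D3, 24.9% of all sums were called and 0 of the 18 tRF-3b groups (limma, with 1 at an unadjusted p under 0.05). At D27 limma called 0 of the 18 in NS-KO, with 3 at an unadjusted p under 0.05, where 0.712% of all sums were called. In WT at D27 it called 0 of the 18, with 5 at an unadjusted p under 0.05, and 0% of all sums. The median log2 fold change of the 18 groups was −0.779 in NS-KO at D3, against −0.137 over all sums, and 0.391 in WT at D3, against −0.0489 over all sums.

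The change to D3 differed between the genotypes in 14.2% of all sums, and in 2 of the 18 tRF-3b groups. For Glu-TTC the change at D3 was −0.37 in NS-KO and 1.87 in WT, with a difference of −2.25 (SE 0.46, limma adjusted p = 0.013). It was called in all 19 alternatives, with adjusted p between 0.0051 and 0.0497. For Ala-CGC/Ala-TGC the change at D3 was −0.92 in NS-KO and 0.85 in WT, with a difference of −1.77 (SE 0.47, limma adjusted p = 0.033). This call was lost in 7 of 19 alternatives, which were the replicate block (adjusted p = 0.051) and the fits without NS-KO D0 replicate 2, NS-KO D3 replicate 2 or any 1 of the 4 WT libraries of D0 and D3. For the change to D27, limma called 0 of the 18 groups, with 5 at an unadjusted p under 0.05, and 0% of all sums.

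Single fragments were compared next. Of 22065 fragments that reached 20 CPM in 1 library or more, 3.93% were called higher and 2.12% lower in NS-KO over days (limma, Benjamini-Hochberg). Of the 867 members 275 entered this fit, and 0 were called higher and 3 lower, with 22 at an unadjusted p under 0.05. All 3 were perfect matches to glycine tRNAs. The 2 of Gly-TCC reached 20 CPM in WT libraries only, so that a lower value in NS-KO follows from the filter, and their counts are given as a description with no test.

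The 22 nt perfect-match fragment of Gly-TCC had 0 reads in each of the 6 NS-KO libraries, against 2 and 0 reads in WT at D0, then 7 and 8 at D3, then 9 and 15 at D27. The absence at D0 cannot be told from the low level in WT, where 1 of 2 libraries also had none. Pooled over libraries, the fragment had 0 of 571014 NS-KO reads and 41 of 1134869 WT reads. With 3 counts taken as the limit for a count of 0, the WT level was 6.88-fold above the NS-KO limit. Without NS-KO D3 replicate 1, which holds 221446 of the NS-KO reads, it was 4.21-fold above. These folds cover counting error alone and not the spread between mice. They describe a fragment selected through WT and test nothing. In WT the fragment was at 41.4 to 85.9 CPM in the 4 libraries of D3 and D27. The form of the same fragment with A58T had 18 reads in NS-KO and 24 in WT, was present in all 12 libraries, and had a log2 fold change of −0.07 (SE 0.27, limma adjusted p = 0.87).

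The 22 nt perfect match of Gly-CCC/Gly-GCC had 1 and 2 reads in NS-KO at D0, then 4 and 1 at D3, then 0 and 0 at D27, against 7 and 9 reads in WT at D0, then 9 and 17 at D3, then 7 and 10 at D27. Its log2 fold change was −1.82 (SE 0.26, limma adjusted p = 0.0070). In CPM the genotypes overlapped at D0, with 14.1 and 42.6 in NS-KO against 26.3 and 55.7 in WT, and not at D3 or D27. The form with A58T had 50 reads in NS-KO and 116 in WT and a log2 fold change of −0.79 (SE 0.41, limma adjusted p = 0.31). The third fragment, the 21 nt perfect match of Gly-TCC, had 0 reads in NS-KO and 8 in WT, and it passed the filter through WT D3 replicate 1 alone, where 2 reads gave 24.5 CPM. Without NS-KO D3 replicate 1 the NS-KO limit of 3 counts lies above its WT level, so no fold is given.

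The call of the 22 nt Gly-CCC/Gly-GCC fragment, which also passed 20 CPM in NS-KO D0 replicate 2, held with every scaling, weighting and left-out library in which it was tested, including total reads (limma adjusted p = 0.019). Without NS-KO D0 replicate 2 it passed 20 CPM in WT only. The count of called members moved more. Without NS-KO D27 replicate 2 limma called 55 members higher and 5 lower of 254, where 23% of all fragments were called higher and 2.84% lower. When NS-KO D0 replicate 1 was left out, 34 of 271 were higher and 5 lower (limma), where 19.2% of all fragments were called higher and 2.59% lower. With voom weights it called 13 higher and 4 lower of 275, where 15.8% of all fragments were called higher and 4.07% lower. Without any other NS-KO library the median log2 fold change of the members was 0.117 to 0.136, against 0.122 to 0.136 over all fragments.

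**Figure D3:**
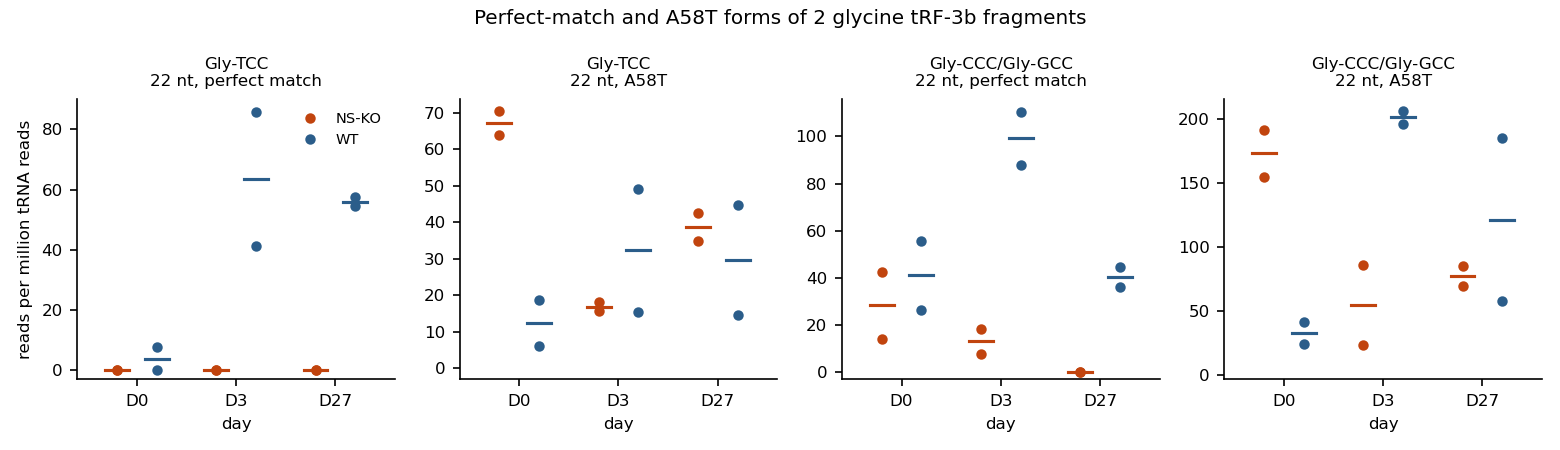
The panels plot the CPM (y axis, linear) of the perfect-match and A58T forms of the 22 nt Gly-TCC and Gly-CCC/Gly-GCC fragments by day (x axis), with 1 point per library, NS-KO left of WT and a bar at the mean of each pair. The Gly-TCC perfect match is at 0 in all 6 NS-KO libraries, while its A58T form runs between 15.7 and 70.6 CPM in NS-KO and between 6.19 and 49.1 CPM in WT.

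Mismatches in these reads gathered at 2 positions. Position 58 differed from the tRNA in 723 of 4887 reads that covered it (14.8%), with 13.8% in NS-KO and 15.7% in WT over pooled reads. Position 76, the last base of CCA, differed in 545 reads (11.2%), with 11.7% in NS-KO and 10.6% in WT. Every other position was at 2.05% or less. For each sequence 1 listed tRNA was taken as the reference. Of these 71 tRNAs, 70 have A at position 58 and 1 has G, and all 71 have T at position 55. Whether the other listed tRNAs, or gene copies that are not listed, carry another base at position 58 was not checked. A mismatch here is therefore a difference from the reference tRNA. The A58T form of the 22 nt Gly-CCC/Gly-GCC fragment is also listed under tRNA-Gly-GCC-4-1, under which the perfect match is not listed. The base of that tRNA at position 58 was not checked. A58T made up 595 of the mismatches at position 58 (82.3%), A58C 76 and A58G 52. Since 1 mismatch per read was allowed in the alignment, a read that differed at position 58 and elsewhere was not counted.

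**Figure D4:**
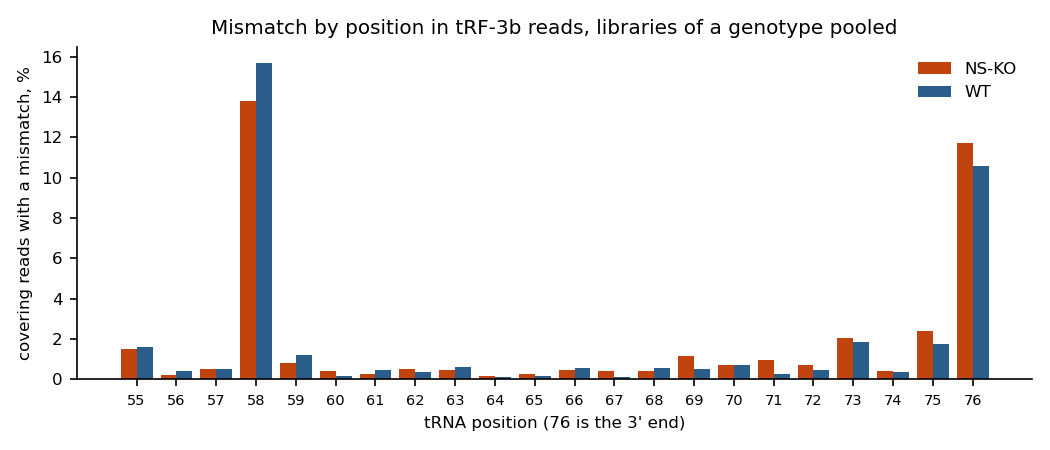
Bars give the percentage of covering reads with a mismatch (y axis, from 0) at each tRNA position between 55 and 76 (x axis), with reads pooled over the 6 NS-KO libraries (left bar) and the 6 WT libraries (right bar). Positions 58 (13.8% in NS-KO and 15.7% in WT) and 76 (11.7% in NS-KO and 10.6% in WT) stand above the rest.

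Read length sets where in the T loop a fragment starts. Fragments of 22 nt, which start at position 55, the site of pseudouridine, held 3255 reads (66.3%), those of 21 nt 505 reads (10.3%), those of 20 nt 307 (6.25%) and those of 19 nt, which start at position 58 itself, 846 (17.2%). Mismatch at position 58 was found in 11.2% of reads of 22 nt (exact 95% binomial interval 10.1% to 12.3%), 25.0% of 21 nt (21.2% to 29.0%), 10.6% of 20 nt (7.36% to 14.6%) and 24.3% of 19 nt (21.4% to 27.3%). The intervals cover counting error alone, as no molecular identifiers were used. The lengths also differ in their mix of isodecoders. Gly-CCC/Gly-GCC gave 62 of the 505 reads of 21 nt and 2 of the 307 of 20 nt. Tyr-GTA gave 189 of the 846 reads of 19 nt and 294 of the 3255 of 22 nt. Whether the mismatch differs by length within an isodecoder was not tested. The share of each length in NS-KO minus that in WT lay between −1.56 percentage points for 19 nt and 0.937 points for 21 nt, with exact permutation p between 0.306 and 0.963. Of the 867 sequences, 854 reached the 3′ end of the tRNA, and the share of reads with a full CCA was 85.9% ± 4.80 in NS-KO, against 86.9% ± 2.45 in WT (SD, n = 6 each; exact permutation p = 0.704).

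Isodecoders differed widely in how often position 58 was read as another base. Pooled over genotypes, it was so in 235 of 338 reads of Gly-CCC/Gly-GCC (69.5%), 67.4% of the 86 reads listed under Gly-CCC alone, 68.3% of the 41 under Gly-GCC alone and 80 of 172 reads of Gly-TCC (46.5%), and in 3 of 142 reads of Gly-ACC/Val-AAC/Val-CAC (2.11%), which glycine shares with valine. The genotypes add unequal numbers of reads to these shares. For Gly-TCC the pooled share was 33 of 37 in NS-KO (89.2%), against 47 of 135 in WT (34.8%), and for Gly-CCC/Gly-GCC it was 86 of 106 in NS-KO (81.1%), against 149 of 232 in WT (64.2%). Tyr-GTA had 188 of 610 (30.8%) and Trp-CCA 16 of 109 (14.7%). The alanine and glutamate groups were low, at 1.29% for Ala-CGC/Ala-TGC, 1.40% for Ala-AGC and 1.86% for Glu-TTC. The base read at position 58 differed as well. All 80 mismatches of Gly-TCC, 233 of 235 of Gly-CCC/Gly-GCC and 176 of 188 of Tyr-GTA were A58T, while those of Glu-TTC were A58C (11) and A58G (2), and Trp-CCA had 9 of A58G and 6 of A58C. Lys-TTT had A58G in 5 of its 8 reads.

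Over all members the share of reads with a mismatch at position 58 was 14.9% ± 4.69 in NS-KO, against 15.2% ± 2.73 in WT (SD, n = 6 each; exact permutation p = 0.889). In Gly-CCC/Gly-GCC and Gly-TCC, the 2 glycine groups with most reads, the mean was higher in NS-KO. In the smaller groups it was 37 of 50 reads in NS-KO and 21 of 36 in WT for Gly-CCC alone, and 16 of 23 in NS-KO and 12 of 18 in WT for Gly-GCC alone, neither of which was tested. For Gly-TCC the reads with a mismatch were 7 of 7 and 5 of 5 in NS-KO at D0, then 8 of 11 and 6 of 6 at D3, then 4 of 4 and 3 of 4 at D27, against 7 of 14 and 3 of 9 in WT at D0, then 6 of 18 and 8 of 27 at D3, then 15 of 37 and 8 of 30 at D27. The lowest NS-KO library, at 72.7%, lay above the highest WT library, at 7 of 14 reads. The means were 91.3% ± 13.5 in NS-KO, against 35.6% ± 8.46 in WT (SD, n = 6 each), a difference of 55.7 percentage points with an exact permutation p of 0.00926, the smallest possible, and an adjusted p of 0.0787 over the 17 fitted groups with a covering read in every library, which misses 0.05. With the other groups as they were, a larger difference could not have lowered this adjusted p. Between 4 and 11 reads stand behind each NS-KO value.

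For Gly-CCC/Gly-GCC the share was 84.2% and 88.2% in NS-KO at D0, then 77.1% and 81.8% at D3, then 80.0% and 78.6% at D27, against 58.3% and 41.7% in WT at D0, then 59.5% and 69.8% at D3, then 75.0% and 63.9% at D27. The genotypes did not overlap, and the means, 81.7% ± 4.06 in NS-KO against 61.4% ± 11.5 in WT (SD, n = 6 each), differed by 20.3 points (exact permutation p = 0.00926, adjusted p = 0.0787). Among reads of 22 nt only, a restriction chosen after seeing the data, the differences were 61.0 points for Gly-TCC and 29.5 points for Gly-CCC/Gly-GCC. This is the same contrast as that of the perfect-match fragments above, seen within each library, so it is no second piece of evidence. In the other 15 groups tested the exact permutation p was 0.1204 or more. Tyr-GTA, with enough reads to compare, stood at 31.2% ± 12.8 in NS-KO, against 33.4% ± 11.7 in WT (SD, n = 6 each; exact permutation p = 0.769). For leucine tRF-3b, position 58 was mismatched in 8.88% ± 5.27 of reads in NS-KO, against 5.13% ± 2.79 in WT (SD, n = 6 each; exact permutation p = 0.185).

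**Figure D5:**
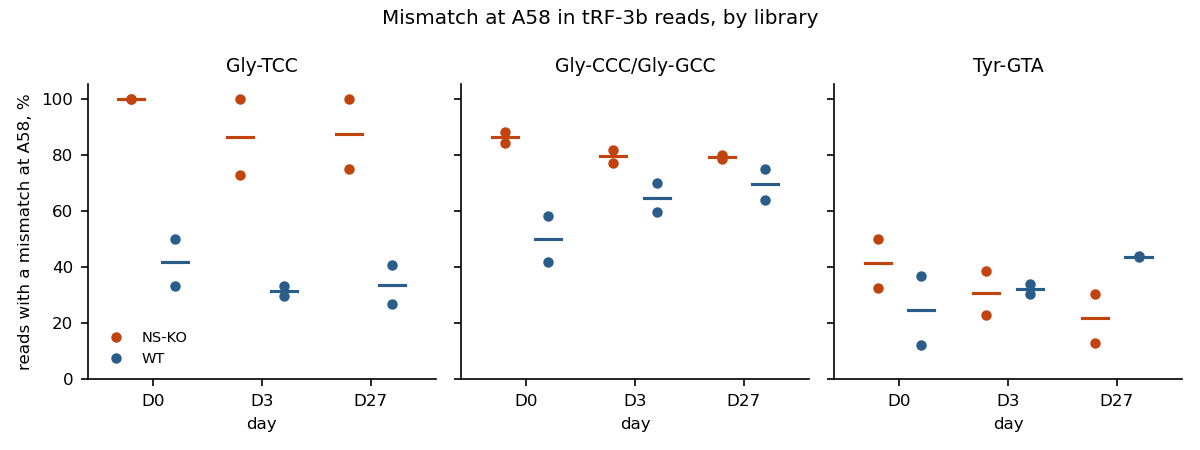
The panels plot the percentage of tRF-3b reads with a mismatch at position 58 (y axis, from 0) by day (x axis) for single isodecoder groups, with 1 point per library, NS-KO left of WT and a bar at the mean of each pair. NS-KO points of Gly-TCC lie at 72.7% or higher and every WT point lies below them, while the points of Tyr-GTA overlap.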

How the data were processed

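tsRNA-seq of mouse liver gave 12 libraries in 6 groups of 2. The authors checked reads with FastQC, trimmed them with cutadapt and aligned them with Bowtie, which was let accept 1 mismatch (versions not given in the sources used here), and deposited a table of read counts by tRNA and read sequence. Each of its 12 library columns equals the file of that sample. Values of other per-sample columns were not used. Each sequence was counted once. Of 278 mature nuclear tRNA entries, 204 have the interval of a RefSeq tRNA gene of GRCm38.p6.

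The members and lists were chosen with earlier results of these data known. The text names the 8 isodecoder groups with most reads, every group called over days, at a day or in an injury contrast, the most read sequence of each of the 8 groups, and the called single fragments. Comparison sets were leucine tRF-3b and tRF-3a of the same isodecoders.

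Sums by subtype and isodecoder with at least 10 reads, kept by the rule of filterByExpr, and fragments that reached 20 CPM in 1 library or more were fitted with limma (3.58.1) with a trend on log2 CPM (prior count 2, TMM scaling, 1 mean per group) and adjusted by Benjamini-Hochberg. limma took the place of the count model of the study because a unit check did not accept the deposited layout, with text lines between rows, as counts. The values themselves are whole read counts. Shares were compared by exact permutation of genotype within days. The fits and the permutation test were tested on simulated data. The simulated counts were of features kept by the rule of filterByExpr, with changes in the more abundant ones only. They did not cover the 20 CPM filter of single fragments or a difference in scaling between genotypes. Depth was 46937 to 275568 reads per library, and the p-values measure the spread between these libraries. Python 3.11.15, numpy 2.4.6, pandas 2.3.3, scipy 1.17.1, matplotlib 3.10.9 and R 4.3.3 were used.

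Of the lists, tRNAs that DNMT2 methylates (Asp-GTC, Gly-GCC, Val-AAC) held 538 reads in 6 groups, 2 of them in the fit with 1 called lower (Gly-CCC/Gly-GCC). tRNAs with a uridine at the first anticodon position held 2179 reads in 21 groups, 7 in the fit with 2 called lower (Gly-TCC and Val-TAC). Over all sums 19.2% were called lower, and the calls of both lists were lost with total reads. A group of several names counts for a list when any of its names is on it. Proline held 120 reads, glycine with shared names 780, glutamate 699, lysine 8 and selenocysteine 1. Alternatives were other scalings, voom weights, prior counts and filters, perfect matches only, sequences of 1 isodecoder only, a replicate block and leaving out each library.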

Additional observations from a re-analysis of the deposited data

Results flagged for a closer look

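The change to D3 differed between the genotypes for 2 tRF-3b groups by a test of the difference itself, an interaction contrast in limma. For Glu-TTC the change in NS-KO minus that in WT was −2.25 on the log2 scale, and for Ala-CGC/Ala-TGC it was −1.77. The 2 WT libraries of D3 stood far apart in both groups, at 1239 and 440 CPM for Glu-TTC and 896 and 434 CPM for Ala-CGC/Ala-TGC. They held 81515 and 193377 tRNA reads. Without WT D3 replicate 1 or WT D3 replicate 2 the Glu-TTC difference stayed called and that of Ala-CGC/Ala-TGC did not.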

How the results depend on the processing

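Of 351 alternative values for 19 single results, 304 kept direction and side of the threshold, 37 lost the call, 9 gained it and 1 reversed, which was Ala-CGC/Ala-TGC over days at 0.7398 with total reads. For NS-KO against WT over days, 11 of the 18 tRF-3b sums were called with total reads, against 4 with TMM. Of all 281 sums, 144 were called higher and 18 lower with total reads, against 57 and 54 with TMM. When each library was left out, the median log2 fold change of the tRF-3b sums was 0.216 to 0.414, against 0.34 with all libraries. At D0 the number was 7 with total reads, where 115 of all 281 sums were called higher and 6 lower. It was 2 with the upper quartile (18 higher and 18 lower of 281) and 2 with perfect matches (8 and 13 of 230). At D3 it was 0 with total reads (45 higher and 20 lower of all 281 sums) and 4 with voom weights (52 and 42). With no filter beyond 10 reads it was 4 of 28 (60 higher and 29 lower of all 409 sums). At D27 it was 9 with total reads (116 higher and 10 lower of all 281 sums) and 3 with the upper quartile (12 and 24). It was 2 with no filter (9 higher and 21 lower of all 409 sums) and 2 with the replicate block (10 and 19 of 281). With perfect matches it was 2 (14 higher and 20 lower of all 230 sums). For D3 against D0 in WT it was 0 with voom weights and 0 with the replicate block, as were the calls over all sums. In NS-KO it was 1 with total reads at D3 (27 higher and 30 lower of all 281 sums) and 1 at D27 (0 and 4). For D27 in WT it was 1 with perfect matches (1 higher and 0 lower of all 230 sums). For the difference in the change to D3 it was 5 with total reads (14 higher and 51 lower of all 281 sums). With the replicate block it was 1 (26 higher and 5 lower). Single fragments called numbered 17 of 275 with voom weights, where 15.8% of all fragments were called higher and 4.07% lower. With perfect matches 5 of 125 were called, where 611 of all 13292 fragments were called higher and 141 lower. Leaving out single libraries moved these counts as well. The difference in the share of tRNA reads was 0.217 to 0.310 points without each library, and in the number of fragments 34 to 67. The cause of these moves was not tested.

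The main fits and tests did not treat the replicate numbers as pairs. Correlations of deviations ran between −0.294 and 0.494, with 4 of 15 pairs above 0.1, and were not tested, so a shared replicate effect was not excluded. With the replicate block the share of tRF-3b among 3′ fragments differed by 8.70 points (exact permutation p = 0.0313, the smallest possible), the interaction of Ala-CGC/Ala-TGC lost its call (limma adjusted p = 0.051), and Gly-TCC and Gly-CCC/Gly-GCC kept theirs over days. edgeR was not run, and the upper quartile could not be used for single fragments, whose 75th percentile is 0. Alternatives added after seeing the data were the mean share over 8 groups (9.90 points, exact permutation p = 0.0185) and the mismatch at position 58 at 22 nt only (−0.43 points) and without glycine (−0.15 points). Also added was the fold of WT over the NS-KO limit for the 22 nt Gly-TCC perfect match. Without each library it was 4.21 to 8.55, a description of pooled reads and no test. Depth limits single fragments, since 592 of 867 were below 20 CPM in every library.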
